A study of Bos taurus with 22 samples.

Results

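The transcription factor genes HNF4A, HNF4G, CDX1, CDX2, GATA4, GATA5 and GATA6, together with the histone acetyltransferase gene KAT2B, were described in the jejunal mucosa of 22 Holstein steers. They were picked by gene symbol as regulators of enterocyte genes, each symbol matched 1 row, and they are 8 of the 27570 genes in the deposited count table. Every steer received raw corn starch into the abomasum, the true stomach, at 3.94 g per kg of BW daily for 7 d, so the control steers carried that load too. Control steers (n = 5) were infused with water and injected under the skin with vehicle, which was bovine serum albumin (BSA) in saline. GLP-2 steers (n = 5) were infused with water and injected with glucagon-like peptide 2, a gut hormone that promotes growth of the intestinal mucosa, at 100 μg per kg of BW daily. Casein steers (n = 6) were infused with sodium caseinate at 1.30 g per kg of BW daily and injected with vehicle, and casein + GLP-2 steers (n = 6) received both. Body weights ranged from 220.0 to 294.1 kg. Each treatment was given for 7 d, 1 sample of scraped mucosa from each steer was sequenced, and a further GLP-2 steer of the experiment was not analysed here.

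HNF4A and HNF4G are nuclear receptors that bind many promoters and enhancers of absorptive enterocytes, among them those of lipid absorption and brush border genes. CDX1 and CDX2 are caudal-type homeobox factors that set intestinal identity, and GATA4, GATA5 and GATA6 are zinc finger factors of which GATA4 is known for keeping the proximal small intestine distinct from the ileum. KAT2B, also called PCAF, acetylates histones and can be carried by the SAGA and ATAC coactivator complexes. Sucrase-isomaltase (SI) and lactase (LCT) are brush border disaccharidases whose promoters are known to be bound by factors of these families, which is why the level of each gene was set against both.

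In the ARS-UCD1.2 assembly, HNF4A (ENSBTAG00000012116) lies at chr13:72825552-72853312 on the plus strand and HNF4G (ENSBTAG00000008280) at chr14:38801752-38831315, also on the plus strand. CDX1 (ENSBTAG00000012014) lies at chr7:61521982-61539126 and CDX2 (ENSBTAG00000001819) at chr12:32083603-32089291, both on the plus strand. GATA4 (ENSBTAG00000005425) is at chr8:7642403-7695092 and GATA6 (ENSBTAG00000005734) at chr24:34163203-34192624, both on the minus strand. GATA5 (ENSBTAG00000047944) is at chr13:54799166-54809284 and KAT2B (ENSBTAG00000000746) at chr1:157277141-157374828, both on the plus strand. HNF4A and GATA5 are on the same chromosome but not neighbours. The authors' paper lists another Ensembl identifier beside the symbol KAT2B, so its KAT2B values and those here are of different identifiers. All 8 genes passed the filter on low counts in every comparison. Counts of single steers ranged from 93 for CDX1 to 27699 for HNF4G, and CDX1 (93 to 729) and GATA6 (123 to 852) had the lowest counts.

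Library totals ranged from 8809666 to 28447810 counts and overlapped between all 4 treatments. The mucosal label was checked against lists of marker genes, given in CPM, the counts divided by the TMM-adjusted library size, and as a score, the mean log2 CPM over a list. Epithelial genes such as EPCAM and CDH1 were present in every steer, and their summed level ran from 2083 to 6580 CPM in the BSA-injected steers and from 4396 to 9595 CPM in the GLP-2-injected steers. The epithelial score was higher with GLP-2, 8.07 ± 0.223 against 7.51 ± 0.542 (SD, n = 11 each, 2-sided permutation p = 0.00153), and 4 of its 11 tested genes rose in the fit across all genes. In that list 9 genes had a log2 fold change above 0 and 2 below. B cell follicle genes moved the other way, from a score of 3.68 ± 2.50 to 0.944 ± 0.644 (permutation p = 0.00125), with 9 of 9 tested genes lower. Their summed level ran from 23.4 to 2179 CPM with BSA and from 20.1 to 72.5 CPM with GLP-2, and no gene of either list was at 0 in all steers. Plasma cell genes (3 of 6 lower) and proliferation genes (3 of 8 lower) were also lower with GLP-2. Past the test were 0 of 8 smooth muscle, 0 of 8 stromal and 0 of 7 macrophage genes and 1 of 8 T cell genes (lower). All 8 smooth muscle and all 8 stromal genes were still below 0, with median log2 fold changes of -1.26 and -0.77. Macrophage genes were mixed, 5 above 0 and 2 below. Of all tested genes, 5.13% passed as higher and 8.37% as lower. In bulk mucosa fewer cells of a type and less RNA per cell cannot be told apart. Replicates 3 and 5 of control and replicate 3 of casein had the lowest epithelial scores, and the GLP-2 changes, the slopes and the correlations with SI and LCT are therefore also given without them.

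HNF4G was the most abundant of the 8 genes per transcript length and KAT2B the least. Mean FPKM (fragments scaled to gene length and library total, as deposited) was 179 ± 94.3 for HNF4G, 94.0 ± 28.4 for CDX2, 55.8 ± 20.7 for GATA4 and 47.4 ± 21.0 for HNF4A (SD, n = 22). It was 31.0 ± 11.9 for GATA5, 14.6 ± 7.24 for GATA6, 13.3 ± 6.06 for CDX1 and 9.99 ± 3.50 for KAT2B. Each gene was compared with the next one down within steers by a 2-sided sign-flip permutation test on log2 FPKM, with 7 neighbouring pairs compared. The pairs and their direction came from the mean FPKM of these same steers, so the p-values are descriptive. HNF4G exceeded CDX2 in 19 of 22 steers (permutation p = 0.00073), and CDX2 exceeded GATA4 in 22 of 22 (p = 1e-05, the smallest p the resamples can give). GATA4 exceeded HNF4A in 18 steers (permutation p = 0.00074), HNF4A exceeded GATA5 in 21 (p = 4e-05), and GATA5 exceeded GATA6 in 22 (p = 1e-05). Among the 3 lowest genes the order of neighbours was not resolved by this test, and GATA6 was not compared with KAT2B. GATA6 was above CDX1 in 13 of 22 steers (permutation p = 0.448), and CDX1 was above KAT2B in 15 (p = 0.0556).

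**Figure D1:**
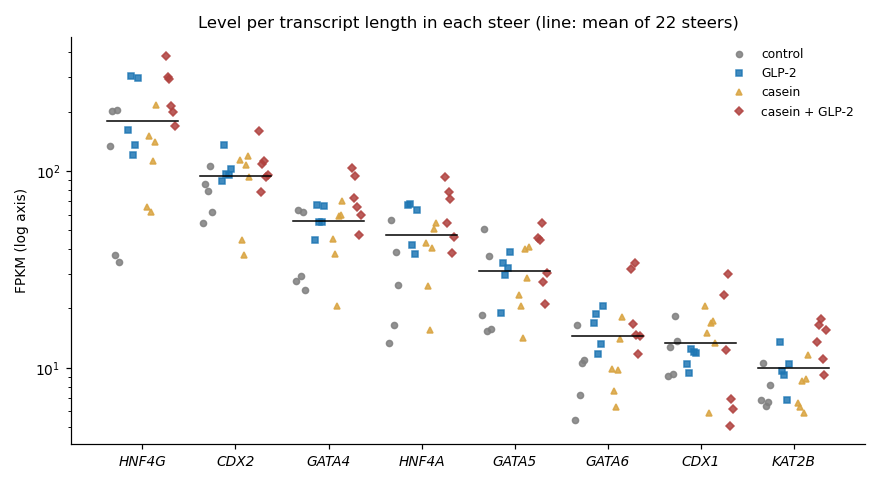
FPKM (log axis) of each gene in each of the 22 steers, with symbols for the 4 treatments and a line at the mean of all steers. HNF4G lies highest at a mean of 179 and spreads over the widest range, and GATA6, CDX1 and KAT2B overlap at the bottom with means of 14.6, 13.3 and 9.99.

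With exogenous GLP-2 administration HNF4A, HNF4G, GATA6 and KAT2B were higher in the fit without blocks. With the body-weight block of the randomized design as a term KAT2B alone was called (padj = 0.0482), and HNF4A (padj = 0.0596), HNF4G (padj = 0.0553) and GATA6 (padj = 0.0556) were tendencies. CDX1 showed no detectable change. Pooled over the infusions, 11 GLP-2 steers were compared with 11 BSA steers with the quasi-likelihood test of edgeR, and p-values were adjusted after Benjamini and Hochberg over 13928 genes (padj), where padj up to 0.05 counts as differential and up to 0.1 as a tendency. By that rule 4 of the 8 genes were differential, all 4 higher, while 13.5% of all tested genes were differential, 5.13% higher and 8.37% lower. Without adjustment 6 of the 8 had p up to 0.05, against 34.6% of all genes. The median log2 fold change of the 8 was 0.59, beside 0.0079 over all tested genes, and 7 of the 8 were positive.

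Of the nuclear receptors, HNF4A had a lowest, median and highest level of 36.1, 103 and 149 CPM in the BSA steers and 103, 167 and 233 CPM in the GLP-2 steers. The groups overlapped, but 6 of 11 GLP-2 steers were above the highest BSA steer and 5 BSA steers were below the lowest GLP-2 steer. The log2 fold change was 0.80 (SE 0.241, 95% interval 0.30 to 1.30, padj = 0.0346), a 1.74-fold higher level. HNF4G ran over 129, 521 and 841 CPM with BSA and 473, 823 and 1401 CPM with GLP-2. Controls 3 and 5, at 140 and 129 CPM, were the lowest steers for HNF4G, and 10 of 11 GLP-2 steers were above the BSA median. Its log2 fold change was 0.93 (SE 0.305, 95% interval 0.30 to 1.56, padj = 0.0454), or 1.91-fold, with the mean moving from 477 ± 261 to 898 ± 308 CPM (SD, n = 11 each).

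Among the GATA factors GATA6 changed most, GATA4 showed a tendency and GATA5 did not pass the test. GATA6 ran over 9.87, 17.5 and 32.7 CPM with BSA and 21.4, 30.0 and 60.4 CPM with GLP-2. All 11 GLP-2 steers were above the BSA median and 8 BSA steers were below the lowest GLP-2 steer. The log2 fold change of GATA6 was 0.83 (SE 0.225, 95% interval 0.36 to 1.29, padj = 0.0257). GATA4 ran over 78.8, 171 and 271 CPM with BSA and 174, 251 and 373 CPM with GLP-2, and again all 11 GLP-2 steers were above the BSA median. Its log2 fold change was 0.56 (SE 0.212, padj = 0.0728). DESeq2 (padj = 0.0495) and limma on log2(FPKM + 1) (padj = 0.0496) called GATA4 as well. GATA5 overlapped more, with 31.9, 52.7 and 115 CPM against 43.7, 74.6 and 122 CPM and a log2 fold change of 0.31 (SE 0.230, 95% interval -0.16 to 0.79, padj = 0.336).

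The caudal factors did not pass the test. CDX2 ran over 48.1, 111 and 159 CPM with BSA and 101, 128 and 196 CPM with GLP-2, with a log2 fold change of 0.38 (SE 0.184, 95% interval 0.0016 to 0.76, padj = 0.143). The GLP-2 steers filled the upper part of the BSA range, with 10 of 11 above its median but 2 above its maximum. CDX1 ran over 9.82, 22.8 and 34.2 CPM with BSA and 8.60, 19.8 and 50.1 CPM with GLP-2. Only 2 of 11 GLP-2 steers, casein + GLP-2 replicates 1 and 3, were above the BSA median of CDX1, and they were also above its maximum. The log2 fold change of CDX1 was -0.11 (SE 0.266, padj = 0.792), and its 95% interval from -0.66 to 0.44 does not show that CDX1 was equal in both groups.

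KAT2B, the acetyltransferase, had the smallest p of the 8. It ran over 26.9, 31.6 and 53.7 CPM in BSA steers and 31.9, 50.9 and 80.4 CPM in GLP-2 steers. All 11 GLP-2 steers were above the BSA median and 5 were above the BSA maximum. The log2 fold change was 0.63 (SE 0.160, 95% interval 0.30 to 0.96, padj = 0.0230), from 35.9 ± 8.78 to 55.5 ± 15.9 CPM. No gene among 15086 had groups of BSA and GLP-2 steers that did not overlap (0%).

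**Figure D2:**
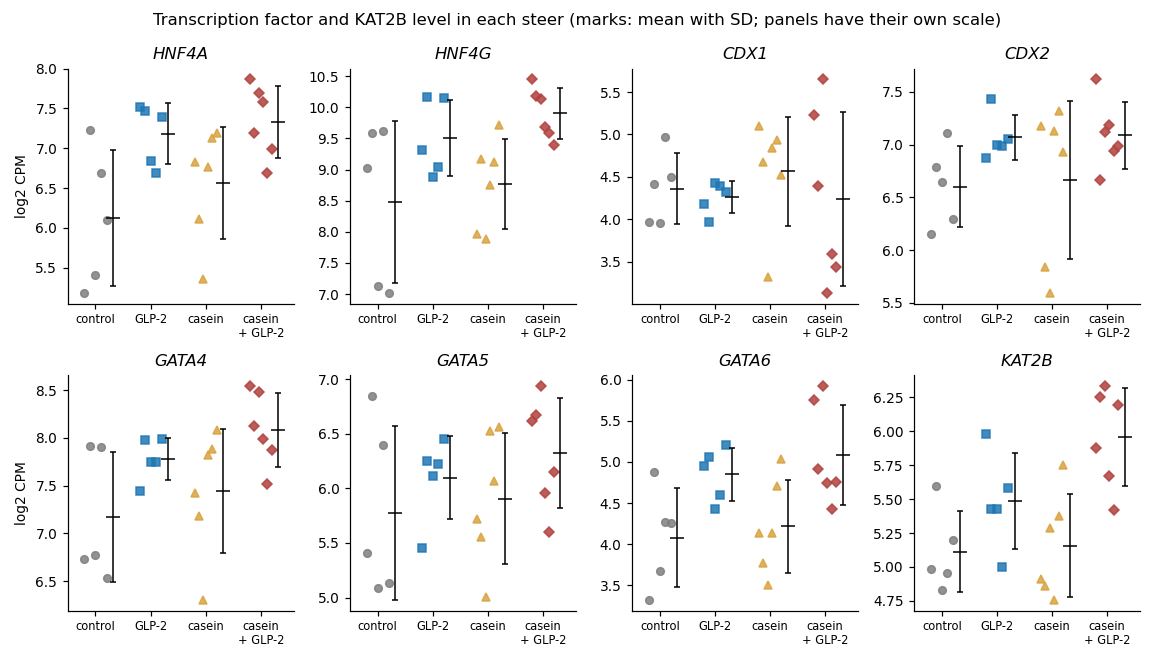
Log2 CPM of each gene in each steer by treatment, 5 or 6 steers a treatment, with the mean and SD beside the points and a separate scale in each panel. All 11 GLP-2-injected steers lie above the median of the BSA-injected steers for GATA4, GATA6 and KAT2B, and CDX1 spreads widest in casein + GLP-2.

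The size of the change varied least across models for KAT2B, while the calls of all 4 genes were lost once a marker score entered the model. With the epithelial score as a term the log2 fold change of KAT2B was 0.65, that of GATA6 0.50, of HNF4A 0.38 and of HNF4G 0.26, and 0 of the 8 genes were called. With the follicle score as a term the values were 0.47, 0.31, 0.15 and 0.27, again with 0 called, and GATA4 (-0.04) and GATA5 (-0.32) were then below 0. In both of these edgeR fits 0 of all 13928 genes passed, with 1356 and 377 at an unadjusted p up to 0.05. The part of either cell type in the change of the 8 genes was not tested beyond these terms. Without the 3 steers of lowest epithelial score the values were 0.60 for KAT2B (padj = 0.142), 0.69 for GATA6 (padj = 0.157), 0.56 for HNF4A (padj = 0.195) and 0.60 for HNF4G (padj = 0.196), with 0 genes called and 2916 unadjusted. Without the steers of highest follicle score (casein replicate 3) and highest smooth muscle score (control replicate 5) the 4 values lay between 0.62 and 0.73, with padj from 0.0691 to 0.120.

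Single steers also decided calls. With each steer left out in turn, KAT2B was called in 22 of 22 fits (largest padj 0.0480), GATA6 in 19, HNF4A in 11 and HNF4G in 7, and the number of called genes ran from 1 to 5. It fell to 1 without control replicate 3 or casein + GLP-2 replicate 1 or 3. It fell to 2 without control replicate 1 or 5, GLP-2 replicate 3 or 6, casein replicate 2 or 3, or casein + GLP-2 replicate 2 or 4. With the block as a term the log2 fold changes were 0.61 for KAT2B, 0.83 for HNF4A, 1.03 for HNF4G and 0.80 for GATA6.

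**Figure D3:**
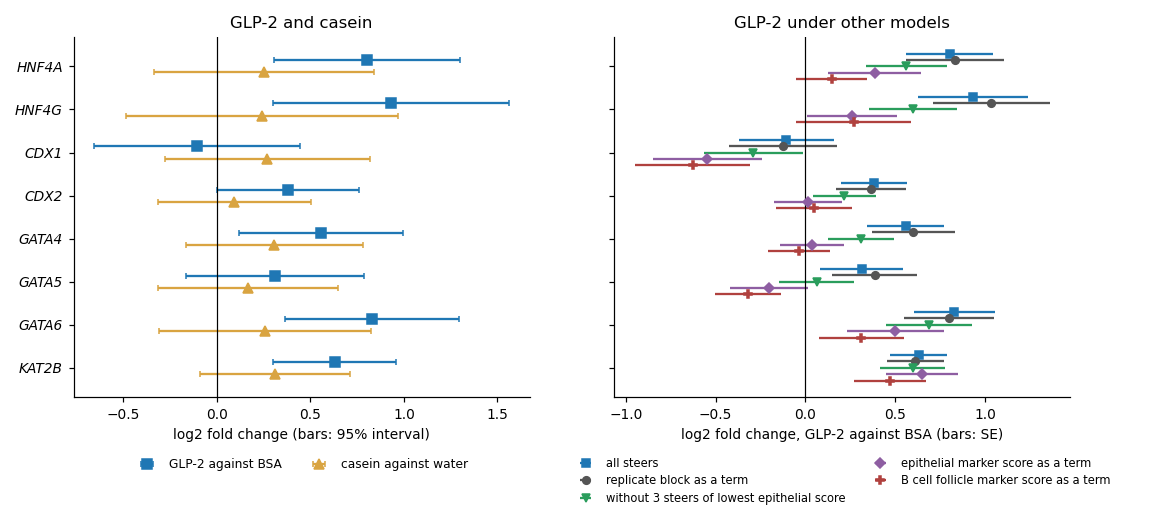
Left, log2 fold change of each gene with 95% intervals for the injection (GLP-2 over BSA) and for the infusion (casein over water). Right, the GLP-2 change (bars are SE) in all steers, with the replicate block, without 3 steers, and with marker scores as terms, where KAT2B stays between 0.47 and 0.65 and the value of HNF4A falls to 0.15.

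Ratios between the genes, within and between families, were examined after the single genes had been seen. The log2 ratio of 2 genes in a steer does not depend on library scaling, and 8 ratios were compared by 2-sided permutation tests. Their p-values were not adjusted over the 8 ratios. A ratio of a gene called higher to CDX1, the only gene below 0, was bound to differ, so its p is descriptive. The other ratios were also examined with the single fold changes known, so their p-values are descriptive too. HNF4A rose against CDX1 by 1.13 log2 units (permutation p = 0.00037), from 1.89 ± 0.505 to 3.02 ± 0.687 (SD, n = 11 each), and 11 of 11 GLP-2 steers were above the BSA median. That difference was 0.98 to 1.23 with any 1 steer left out and 1.06 without the 3 steers of lowest epithelial score. It was 1.14 with the epithelial score and 0.85 with the follicle score as a term. CDX2 against CDX1 differed by 0.67 (permutation p = 0.0137) and HNF4A against CDX2 by 0.46 (permutation p = 0.0185). GATA6 against GATA5 differed by 0.45 (permutation p = 0.0163) and GATA4 against GATA5 by 0.25 (permutation p = 0.0130). HNF4G against HNF4A (0.19, permutation p = 0.520), GATA6 against GATA4 (0.20, permutation p = 0.196) and KAT2B against CDX2 (0.16, permutation p = 0.521) did not pass. The ratio of HNF4A to CDX2 fell to 0.06 with the follicle score as a term, and that of HNF4G to HNF4A turned to -0.23 with the epithelial score.

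Postruminal casein infusion was compared with water over both injections (12 against 10 steers, 14096 genes). None of the 8 genes was differential by edgeR, and none had an unadjusted p up to 0.05, where 0% of all genes were differential and 3.36% had an unadjusted p up to 0.05. DESeq2 and limma also called 0 of the 8. The log2 fold changes ran from 0.09 for CDX2 to 0.31 for KAT2B, all 8 above 0, with padj of 0.994 for each. The 95% intervals, such as -0.09 to 0.71 for KAT2B and -0.48 to 0.97 for HNF4G, reach past the estimates of 0.63 and 0.93 that these genes had for GLP-2.

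The 4 treatments were also compared pairwise in a fit of all 22 steers and 15086 genes, in which these contrasts share treatments. HNF4A was at 36.1, 149, 42.4, 103 and 68.1 CPM in the control steers and at 182, 177, 115, 103 and 167 CPM in the GLP-2 steers. Control replicate 2 lay within the range of the GLP-2 steers, replicate 4 just under it, and the other controls well below. HNF4A ran over 41.0, 111 and 146 CPM with casein and 103, 169 and 233 CPM with casein + GLP-2. For GLP-2 against control its log2 fold change was 0.90 (SE 0.363, padj = 0.281), and for casein + GLP-2 against casein 0.71 (SE 0.330, padj = 0.197). No gene passed in either contrast by edgeR (0% called), and DESeq2 and limma called 0 of the 8 for GLP-2 against control, while 13.9% and 24.1% of all genes had an unadjusted p up to 0.05 and 2 and 4 of the 8 did.

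KAT2B was highest with casein + GLP-2. Its level was 31.6, 48.2, 28.3, 31.0 and 36.5 CPM in control and 63.0, 42.9, 43.0, 31.9 and 47.8 CPM in GLP-2. It ran over 26.9, 34.4 and 53.7 CPM in casein and over 42.7, 65.9 and 80.4 CPM in casein + GLP-2, where the lowest steer was above 5 of the 6 casein steers. The log2 fold change was 0.80 against casein (SE 0.207, padj = 0.118), which DESeq2 alone called (padj = 0.0199), 0.48 against GLP-2 (SE 0.217, padj = 0.995) and 0.38 for GLP-2 against control (SE 0.226, padj = 0.435). The casein × GLP-2 interaction of KAT2B was 0.41 (SE 0.305, 95% interval -0.22 to 1.05, padj = 0.996). Interactions of the other 7 genes lay between -0.19 and 0.30, with 0 of 8 called and 0% of all genes called, and 0 of 8 at an unadjusted p up to 0.05 beside 4.28% of all genes.

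GATA6 and HNF4G had the smallest p after KAT2B for casein + GLP-2 over casein. GATA6 was at 9.87, 29.3, 12.6, 19.1 and 19.1 CPM in control and 30.9, 33.1, 21.5, 24.2 and 36.9 CPM in GLP-2. It ran over 11.2, 17.5 and 32.7 CPM in casein and over 21.4, 28.4 and 60.4 CPM in casein + GLP-2, where replicates 1 and 3 stood at 53.9 and 60.4 CPM. The log2 fold change of GATA6 against casein was 0.89 (SE 0.306, padj = 0.130) and that of HNF4G 1.04 (SE 0.421, padj = 0.155). CDX1 differed more between steers of a treatment than between treatments. It was 18.0, 15.5, 21.4, 20.8 and 19.8 CPM in the GLP-2 steers, a coefficient of variation of 12.6%, but 37.4, 20.8, 50.1, 8.60, 11.9 and 10.7 CPM in casein + GLP-2, one of 72.7%. Casein against control (0 of 8 called, 0% of genes) gave 0.04 to 0.36, and casein + GLP-2 against GLP-2 (0 of 8, 0% of genes) gave 0.04 to 0.48. Those contrasts had 0 and 1 of the 8 at an unadjusted p up to 0.05, beside 5.66% and 2.64% of all genes.

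How each gene followed SI and LCT was then measured over the 22 steers, in 16 relations of log2 CPM. SI ran over 178, 638 and 1888 CPM in BSA steers and 545, 1108 and 1785 CPM in GLP-2 steers. LCT spread further, over 85.5, 281 and 3386 CPM with BSA and 696, 3142 and 6963 CPM with GLP-2. The measures share library, normalization and treatment, and SI and LCT were themselves correlated (r = 0.78). Among all genes the median r was 0.060 with SI and 0.045 with LCT, and 25.1% and 26.1% of genes had r over 0.5. The lower and upper quartiles of r among all genes were -0.44 and 0.50 with SI and -0.46 and 0.52 with LCT. Large r in either direction was thus common among all genes. Of the 16 relations, 13 had a permutation p up to 0.05 for Pearson's r. The share of all genes at that p was not counted, so the 13 are not shown to be unusual.

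HNF4G followed SI most closely of the 8, with r = 0.92 (rho = 0.93, permutation p = 1e-05 for each, the smallest possible), a value that 99.9% of genes fell below. It was 0.91 without the steers farthest from the SI median (casein replicate 1 and control replicate 3), 0.89 in BSA steers alone, 0.86 in GLP-2 steers alone, 0.88 with treatment means removed and 0.82 with the epithelial score regressed out. GATA4 followed SI with r = 0.73 (rho = 0.85, permutation p = 0.00017), GATA5 with 0.67 (rho = 0.67, p = 0.00061 by permutation), HNF4A with 0.64 (rho = 0.70, permutation p = 0.00163) and GATA6 with 0.64 (rho = 0.78, permutation p = 0.00131). In these 4 genes r was 0.76, 0.64, 0.67 and 0.61 without the same steers, and lay between 0.28 and 0.36 with the epithelial score regressed out. KAT2B had r = 0.58 (rho = 0.68, permutation p = 0.00482) and 0.52 with that score regressed out. CDX2 had 0.41 (rho = 0.39, permutation p = 0.0548). CDX1 had the lowest r with SI (r = -0.02, rho = -0.04, permutation p = 0.920). The share of all genes with a lower r was 90.0% for GATA4, 85.6% for GATA5, and 83.8% for HNF4A and for GATA6. That share was 79.9% for KAT2B, 69.4% for CDX2 and 46.2% for CDX1. Without the same steers r with SI was 0.47 for KAT2B, 0.59 for CDX2 and 0.06 for CDX1. Without the 3 steers of lowest epithelial score it was 0.88 for HNF4G, 0.55 for GATA6, 0.54 for GATA4, 0.53 for KAT2B, 0.44 for GATA5, 0.43 for HNF4A, 0.18 for CDX2 and -0.23 for CDX1.

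LCT was followed most closely by GATA6 and HNF4A. For GATA6 r was 0.91 (rho = 0.93) and for HNF4A 0.91 (rho = 0.89), each with permutation p = 1e-05, the smallest possible. Both were 0.87 without control replicate 1 and casein replicate 3, the steers farthest from the LCT median, and 0.84 and 0.86 with treatment means removed. GATA4 had r = 0.89 (rho = 0.88, permutation p = 1e-05), HNF4G 0.84 (rho = 0.88, permutation p = 2e-05) and GATA5 0.80 (rho = 0.77, permutation p = 3e-05). KAT2B had r = 0.73 (rho = 0.77, permutation p = 0.00021) and CDX2 0.67 (rho = 0.46, permutation p = 0.00064). The share of all genes with a lower r was 98.9% for GATA6, 98.8% for HNF4A, 98.0% for GATA4 and 95.2% for HNF4G. That share was 92.7% for GATA5, 88.0% for KAT2B and 84.0% for CDX2. With the epithelial score regressed out r was 0.86 for GATA6, 0.83 for HNF4A, 0.78 for GATA4, 0.73 for KAT2B, 0.66 for HNF4G, 0.59 for GATA5 and 0.37 for CDX2. CDX1 had r = 0.20 with LCT (rho = 0.17, permutation p = 0.375), or 0.43 with treatment means removed (permutation p = 0.0210) and 0.54 with treatment and block removed. Without the 2 farthest steers r with LCT was 0.90 for HNF4G, 0.86 for GATA4, 0.75 for GATA5, 0.75 for KAT2B, 0.53 for CDX2 and 0.01 for CDX1. Without the 3 steers of lowest epithelial score it was 0.91 for GATA6, 0.88 for HNF4A, 0.85 for GATA4, 0.79 for HNF4G, 0.74 for KAT2B, 0.68 for GATA5, 0.55 for CDX2 and 0.05 for CDX1.

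**Figure D4:**
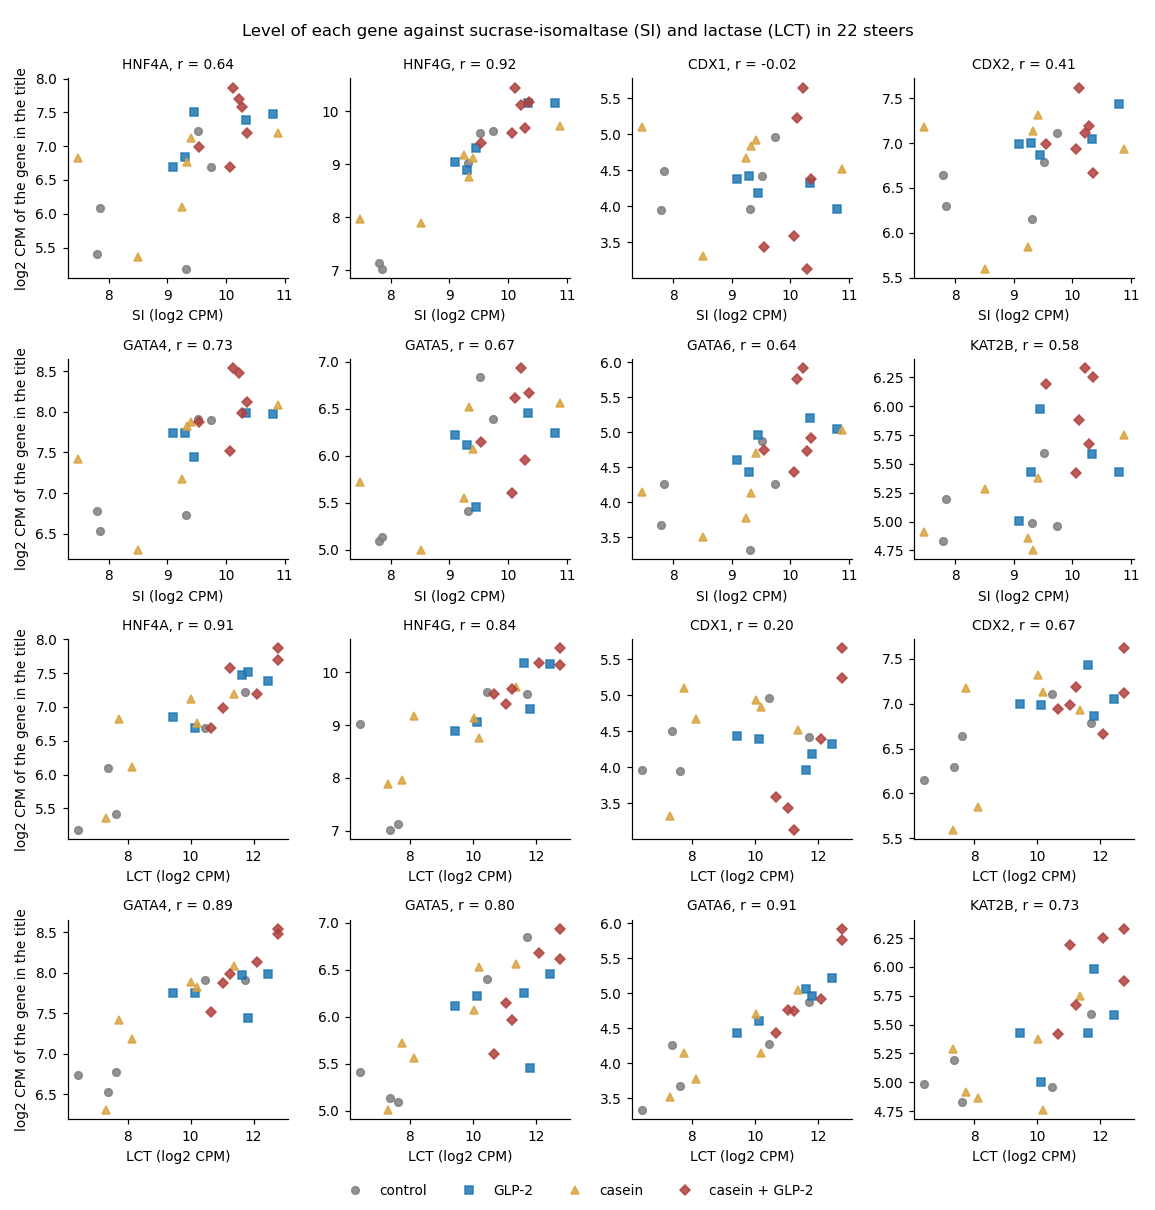
Log2 CPM of each gene against log2 CPM of SI (top 8 panels) and of LCT (bottom 8 panels) in 22 steers, coloured by treatment, with Pearson's r in each title. HNF4G lies closest to a line with SI (r = 0.92), GATA6 and HNF4A with LCT (r = 0.91), and CDX1 has the lowest r with each (-0.02 and 0.20).

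The same relations were fitted by edgeR across all genes as slopes on log2 CPM of SI or LCT with treatment as a term, so that differences between treatment means did not enter. On SI 3 of the 8 genes had a slope past the threshold, beside 30.5% of 15085 genes (16.1% with a positive slope). HNF4G rose by 0.84 log2 units per log2 unit of SI (SE 0.116, padj = 0.000276), GATA5 by 0.42 (SE 0.127, padj = 0.0164) and GATA4 by 0.36 (SE 0.111, padj = 0.0188). HNF4A (0.31, padj = 0.0923) and GATA6 (0.30, padj = 0.0831) were tendencies, and KAT2B (0.15, padj = 0.239), CDX2 (0.11, padj = 0.514) and CDX1 (0.03, padj = 0.907) did not pass. HNF4G alone was called with the replicate block, with the epithelial or follicle score as a term, or without the 3 steers of lowest epithelial score. Without adjustment 5 of the 8 had p up to 0.05, beside 41.9% of genes. On LCT 7 of the 8 genes passed, beside 33.6% of genes (17.7% with a positive slope), and 7 had an unadjusted p up to 0.05, beside 43.7%. The slopes were 0.33 for HNF4A (padj = 6.45e-05), 0.33 for HNF4G (padj = 0.00322), 0.30 for GATA5 (padj = 0.000146), 0.30 for GATA6 (padj = 0.000122) and 0.27 for GATA4 (padj = 0.000113). They were 0.16 for CDX2 (padj = 0.0452) and 0.12 for KAT2B (padj = 0.0495), while CDX1 had 0.18 (padj = 0.143). With each steer left out in turn, the slope of CDX2 was called in 6 of 22 fits and that of KAT2B in 8 of 22. Without the 3 steers of lowest epithelial score CDX2 was not called on LCT (0.13, padj = 0.131) and the other 6 were. With the follicle score as a term only GATA6 was called on LCT. The follicle score itself had r = -0.86 with LCT and r = -0.70 with SI, and its part in the slopes was not tested beyond that term.

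Because SI and LCT rose together, both were also put into 1 model with treatment, a step added after the slopes had been seen. HNF4G then followed SI, with a slope of 0.69 (SE 0.136, 95% interval 0.41 to 0.98, padj = 0.0306), whereas its slope on LCT was 0.12 (padj = 0.299). It was the only 1 of the 8 called for SI, beside 0.345% of 15084 genes, and the SI slopes of the other 7 lay between -0.34 and 0.05. For LCT 4 of the 8 were called, beside 9.71% of genes. These were HNF4A with 0.40 (SE 0.0657, padj = 0.00122), GATA6 with 0.35 (SE 0.0658, padj = 0.00250), GATA5 with 0.28 (SE 0.0694, padj = 0.0147) and GATA4 with 0.26 (SE 0.0614, padj = 0.0106). CDX1 (0.30, padj = 0.112), CDX2 (0.22, padj = 0.0875) and KAT2B (0.12, padj = 0.244) were not called. With each steer left out in turn, HNF4A and GATA6 were called for LCT in 22 of 22 fits, and GATA4 and GATA5 in 21, each lost without control replicate 2. The slope of HNF4G on SI stayed between 0.49 and 0.86 and was called in 14 of 22. It was lost without control replicate 1, 3 or 5, GLP-2 replicate 1, 3 or 6, casein replicate 2 or casein + GLP-2 replicate 3, with padj up to 0.585. With the replicate block it was 0.74 (padj = 0.0391), and without the 3 steers of lowest epithelial score 0.48 (padj = 0.228). Without those 3 steers the LCT slopes of HNF4A, GATA4, GATA5 and GATA6 were between 0.24 and 0.38 and all 4 were called.

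**Figure D5:**
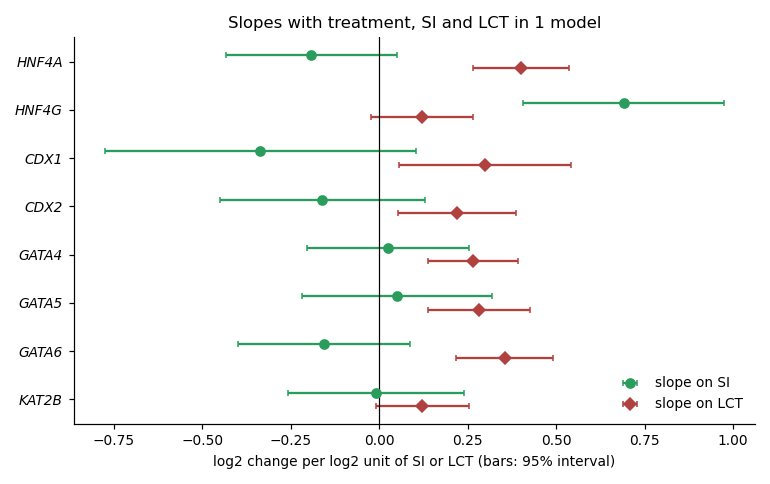
Slopes of each gene on SI and on LCT (log2 change per log2 unit) from the model that holds treatment, SI and LCT together, with 95% intervals. The more positive slope is on SI for HNF4G (0.69) and on LCT for every other gene (0.12 to 0.40), while CDX1 has -0.34 on SI. Log2 CPM spread less between steers for SI (SD 0.925) than for LCT (SD 1.96), so slopes per unit of SI and of LCT are not on a like scale.

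The 8 genes varied together to different degrees, over 28 pairs. HNF4A and GATA6 had r = 0.92 (rho = 0.92, permutation p = 1e-05, the smallest possible), GATA4 and GATA5 0.91 (rho = 0.89, permutation p = 1e-05), and HNF4A and GATA4 0.89 (rho = 0.83, permutation p = 1e-05). With treatment means removed those 3 pairs had r = 0.88, 0.93 and 0.85. The paralogs HNF4A and HNF4G had a lower r of 0.73 (rho = 0.74, permutation p = 0.00029), 0.57 with treatment means removed. CDX1 and CDX2 had 0.34 (rho = 0.35, permutation p = 0.123), and CDX1 and KAT2B -0.02 (rho = -0.08, permutation p = 0.929). Without the 2 steers farthest from the median of the first gene, r of these 6 pairs was 0.88, 0.88, 0.84, 0.81, 0.45 and -0.22. Without the 3 steers of lowest epithelial score it was 0.91, 0.85, 0.85, 0.55, 0.17 and -0.10. Against the marker scores, HNF4G had the highest r with the epithelial score (0.86), followed by GATA4 (0.84), GATA5 (0.73), CDX2 (0.68), HNF4A (0.68), GATA6 (0.61), KAT2B (0.33) and CDX1 (0.29). Against the follicle score r ran from -0.90 for GATA4 and -0.89 for HNF4A to -0.56 for KAT2B and -0.28 for CDX1. With treatment means removed KAT2B had r = -0.07 with the epithelial score.

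The genes most like each member over the 22 steers were found by Pearson's r among the tested genes with a symbol. The other members and genes not reported here were left out of that search. For HNF4G they were CDH1 (r = 0.98), the gene of E-cadherin and itself in the epithelial list, with XKR9 (0.98) and ADGRG7 (0.98). For HNF4A they were EXPH5 (0.95), PPARA (0.94), a nuclear receptor of fatty acid oxidation, and PCSK5 (0.94). GATA4 was closest to NLRP6 (0.97), CEP170B (0.97) and the nucleoside transporter SLC29A2 (0.96). GATA5 was closest to DGAT1 (0.94), the last enzyme of triglyceride synthesis, then MIGA2 (0.92) and FBXW5 (0.92). GATA6 went with TMEM30B (0.94), PLEKHA7 (0.94) and KIAA1522 (0.93), and CDX2 with the zinc transporter SLC39A7 (0.91), the protease ST14 (0.91) and AP1M2 (0.90). KAT2B (MAP3K15 0.86, KIDINS220 0.84, TNPO1 0.82) and CDX1 (SEMA3B 0.69, COG1 0.69, LIN52 0.65) had the loosest partners.

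Genes that these factors are known to control were described next to them. Of 7 brush border carbohydrases and hexose transporters, 2 rose with GLP-2 and 0 fell, with a median log2 fold change of 1.27, beside 5.13% of all genes higher. With the replicate block 0 of the 7 were called, while DESeq2 called 4 and limma on FPKM called 6. LCT went from 978 ± 1122 to 3508 ± 2219 CPM, a log2 fold change of 1.87 (SE 0.590, padj = 0.0407). The sodium-glucose cotransporter SLC5A1 changed by 1.58 (SE 0.461, padj = 0.0314). Trehalase (TREH, 0.82, padj = 0.0524) and maltase-glucoamylase (MGAM, 1.29, padj = 0.0768) were tendencies. SI (0.74, padj = 0.112), SLC2A2 (1.27, padj = 0.106) and the fructose transporter SLC2A5 (0.52, padj = 0.425) did not pass. The SLC2A5 row used here, ENSBTAG00000007302, had counts from 2 to 1058. The authors' paper lists another Ensembl identifier beside that symbol, and no values of it are given here. Leaving out the gene itself, 5 of 6 had positive slopes past the threshold on SI and 5 of 6 on LCT, SLC2A5 being the exception in both. Of all genes, 16.1% had such a slope on SI and 17.7% on LCT.

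Of 12 known HNF4 targets in lipid absorption, 0 passed for GLP-2, although all 12 were positive with a median of 0.88 and 6 had an unadjusted p up to 0.05. The smallest p belonged to MTTP (0.93, padj = 0.105), which loads lipid onto apolipoprotein B, and MOGAT2 (1.16, padj = 0.110), which makes diglyceride. In limma on FPKM 2 of the 12 were called. On SI and on LCT 11 of the 12 had positive slopes past the threshold, beside 16.1% and 17.7% of all genes. Of 9 known CDX targets, 2 rose (5.13% of all genes) and all 9 were positive, with a median of 0.92. With the replicate block 1 was called, and by DESeq2 and by limma 5. The 2 were GUCY2C (1.15, padj = 0.0229), the guanylin receptor, and CLDN2 (1.24, padj = 0.0458), a pore-forming claudin. CDX targets had positive slopes past the threshold in 8 of 9 on SI and 8 of 9 on LCT, beside the same shares of all genes.

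Ileal bile acid genes were described because GATA4 is known to hold them low in the jejunum. Of 5 tested, 1 was called lower with GLP-2, beside 8.37% of all genes, and 0 were called higher. The other 4 had positive log2 fold changes, and the median of the 5 was 0.38. The gene called lower was the ileal bile acid binding protein gene FABP6, which went from 40.9 ± 67.9 to 1.91 ± 2.48 CPM (log2 fold change -4.43, SE 0.932, padj = 0.0189). Its slope on LCT was -1.19 (padj = 0.000685). The SD of FABP6 was larger than its mean in both groups. On LCT 3 of 6 genes of the list had positive and 2 negative slopes past the threshold, and on SI 3 had positive slopes. Of all genes, 33.6% had a slope past the threshold on LCT (17.7% positive) and 30.5% on SI (16.1% positive).

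Of 28 other transcription factors of the intestinal epithelium 1 rose, MAF (0.87, padj = 0.0310), beside 5.13% of all genes. DESeq2 and limma each called 5, and 1 was called with the replicate block. Of the 28, 13 had an unadjusted p up to 0.05, beside 34.6% of all genes, and the median was 0.42. On SI 9 and on LCT 14 of the 28 had positive slopes past the threshold, beside 16.1% and 17.7% of all genes, and 0 had negative ones. Of the remaining genes of the GATA and CDX families, GATA2 (0.53, padj = 0.312) and GATA3 (-0.21, padj = 0.488) were tested and did not pass, and GATA1 and CDX4 were below the filter on low counts.

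Other coactivators, and subunits of the complexes that can carry KAT2B, were described by list. Among coactivators of nuclear receptors and GATA factors, 3 of 10 rose, beside 5.13% of all genes, and 0 fell. The median of these coactivators was 0.47, and with the replicate block 2 were called. PPARGC1A (PGC-1α) changed by 0.94 (SE 0.181, padj = 0.0186), NCOA1 by 0.64 (SE 0.189, padj = 0.0325) and the acetyltransferase EP300 by 0.58 (SE 0.188, padj = 0.0443). PPARGC1A had slopes of 0.05 on SI (padj = 0.766) and 0.09 on LCT (padj = 0.266), while NCOA1 passed on both (0.41 and 0.26). Among 24 subunits of SAGA and ATAC, KAT2B itself not counted, 0 rose and 4 fell, beside 8.37% of all genes lower, with a median of -0.07. With the replicate block 1 of the 24 was called lower, by DESeq2 5 and by limma 2. KAT2A, the paralog that fills the same place in these complexes, fell by 0.63 log2 units (SE 0.204, padj = 0.0436), opposite to KAT2B. KAT14 fell by 0.49 (padj = 0.0295), TAF9 by 0.43 (padj = 0.0438) and WDR5 by 0.50 (padj = 0.0486). On SI 7 of the 24 had negative slopes past the threshold, KAT2A among them (-0.42, padj = 0.00706), and on LCT 8 negative and 1 positive. Of all genes, 30.5% had a slope past the threshold on SI (16.1% positive) and 33.6% on LCT (17.7% positive). With the epithelial or follicle score as a term, or without the 3 steers of lowest epithelial score, 0 genes of any of these lists were called for GLP-2. For casein against water 0 genes of any list were called.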

How the data were processed

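RNA of jejunal mucosa from 22 steers was sequenced by the authors with a strand-specific protocol. Per the labels, the authors aligned reads to ARS-UCD1.2 with HISAT2 2.0.5, assembled them with StringTie 1.3.3b and counted them on genes with featureCounts 1.5.0-p3. The authors deposited whole-number counts and FPKM values, which are scaled by gene length and library total. The counts were the main measure, and FPKM served for levels between genes and as an alternative, on log2(FPKM + 1) and log2(FPKM + 0.1). No columns of the authors' own comparisons were used.

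Counts were filtered by filterByExpr (minimum count 10), normalized by TMM and tested by edgeR 4.0.16 (quasi-likelihood, Benjamini-Hochberg over all genes tested) in R 4.3.3. Log2 CPM used a prior count of 2, and single measures were tested by 2-sided permutation with 100000 resamples. limma 3.58.1 and DESeq2 1.42.0 were alternatives, as were other size factors, no filter, a minimum of 10 counts in all steers, the replicate block, the other factor as a term, marker scores as terms and each steer left out. Leaving out steers by marker score, family ratios and the model with SI and LCT together were chosen after seeing the data. So were the neighbouring pairs compared in FPKM. Groups and blocks were taken from the sample labels. Following the authors, blocks are strata of body weight. No 2 libraries of a treatment agreed within sampling noise over 50 pairs (chi-square per gene at least 30.4). Since each steer is 1 library, p-values measure the spread between steers. The procedure was tested on simulated data.

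The 8 genes and all lists were chosen with earlier results of these data known. Genes named are these 8, the carbohydrases and transporters, up to 4 genes past the threshold in each other list (or the 2 of smallest p), and the 3 genes with the highest r for each. MUC2 and TAF5L had no row in the table, and SLC10A2 and ZFPM2 were below the filter in the pooled test. One further factor of this group is not reported here. No sequence is given.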

Additional observations from a re-analysis of the deposited data

Results flagged for a closer look

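Among 60 groups of 5 or 6 steers (a gene in a treatment), 3 had a lowest steer whose gap to the next steer exceeded Dixon's 95% critical value, which chance gives in about 1 group in 20. CDX1 in casein replicate 3 stood at 3.32 log2 CPM, with the nearest casein steer at 4.52. SI in casein + GLP-2 replicate 6 stood at 9.54 log2 CPM, with the nearest steer at 10.1. SLC2A5 in casein + GLP-2 replicate 4 stood at -1.66 log2 CPM, with the nearest steer at 2.93.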

How the results depend on the processing

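The number of the 8 genes called for GLP-2 against BSA (4) was 1 with the replicate block and 0 with the epithelial, follicle or smooth muscle score as a term, without the 3 steers of lowest epithelial score, and without the 2 steers of highest follicle and muscle scores. It ran from 1 to 5 with each steer left out. DESeq2 called 1 for casein + GLP-2 against casein, where edgeR called 0. For slopes on SI (3) the count was 1 with the block, with the epithelial or follicle score, or without the 3 steers, 6 without the treatment term, and 3 to 5 with each steer left out (5 without control replicate 1). For slopes on LCT (7) it was 1 with the follicle score and 5 to 7 with each steer left out. Of 16 correlations, 13 had a permutation p up to 0.05, 6 did in GLP-2 steers alone, 8 with the epithelial score regressed out, and 13 to 14 with each steer left out. The causes were not tested. Body-weight blocks did not pair the steers clearly: 30 same-block pairs had a mean correlation of 0.0331 after treatment means were removed, 13 of them over 0.1, against -0.00641 for 151 other pairs. With the block, slopes lost their call for GATA4 and GATA5 on SI (padj = 0.0906 and 0.130) and KAT2B on LCT (padj = 0.172), CDX2 gained one on LCT with SI in the model (padj = 0.0401), beside the GLP-2 calls of HNF4A, HNF4G and GATA6. For GLP-2 the block also took list calls from 2 to 0 for carbohydrases, 2 to 1 for CDX targets, 3 to 2 for coactivators and 4 to 1 for SAGA and ATAC.

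Directions reversed as follows. With the follicle score as a term, GLP-2 against BSA gave -0.036 for GATA4 and -0.32 for GATA5, casein against water -0.039 for CDX2 and -0.024 for GATA5, GLP-2 against control -0.24 for HNF4G, -0.11 for CDX2, -0.39 for GATA4, -0.73 for GATA5 and -0.035 for GATA6, casein + GLP-2 against casein -0.13 for GATA5, and slopes on SI -0.0099 for HNF4A, -0.27 for CDX1 and -0.070 for CDX2. With the epithelial score, GATA5 gave -0.20 in GLP-2 against BSA, -0.38 in GLP-2 against control and -0.075 between casein + GLP-2 and casein, GATA4 -0.066 in GLP-2 against control, slopes on SI -0.32 for CDX1 and -0.14 for CDX2, and r -0.18 for CDX2 with SI and -0.0050 for CDX1 with LCT. With the smooth muscle score, casein against water gave -0.019 for HNF4G and casein + GLP-2 against casein -0.11 for GATA5. Without the 3 steers, GLP-2 against control gave -0.23 for GATA5, the slope of CDX1 on SI -0.081 and the ratio of HNF4G to HNF4A -0.021, and SI slopes with LCT in the model -0.045 for GATA4, -0.058 for GATA5 and 0.010 for KAT2B. The r of CDX1 with SI was 0.065 without the 2 farthest steers, 0.15 in BSA and 0.016 in GLP-2 steers, and 0.074 with treatment means removed. With each steer left out, sign changed for CDX2 in casein against water (-0.017 to 0.17) and for CDX1 in GLP-2 against control (-0.24 to 0.037), casein + GLP-2 against casein (-0.45 to 0.087), slope on SI (-0.013 to 0.17) and r with SI (-0.12 to 0.12). It also changed for SI slopes with LCT in the model of GATA4 (-0.043 to 0.14), GATA5 (-0.070 to 0.14) and KAT2B (-0.092 to 0.037). Of 712 values for single genes under the other alternatives, 601 kept direction and side of the threshold. The lowest counts were 93 for CDX1 and 123 for GATA6, so depth limits those most.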
